A study of Rattus norvegicus with 26 samples.

Results

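The genes described here are 10 genes by which white adipocytes are usually recognised: the secreted proteins Adipoq, Cfd, Retn and Lep, the lipid handling genes Lpl, Fabp4, Plin1, Cidec and Lipe, and the enzyme gene Pck1. They were measured in the thoracic aorta, whose outer coat carries a sleeve of perivascular fat. Members were found by matching the accession of each gene probe to these symbols, which gave 10 probes for 9 of the 10 genes, out of 15168 genes named on the array. All 9 passed the filter on dim signals, which asked that 6 or more of the 26 arrays show the probe well above background. Plin1 was matched by no probe and was not analysed here. Where a gene had several probes, the brightest on average was used.

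All rats were male and spontaneously hypertensive (SHR), an inbred strain with inherited high blood pressure. They received by mouth, for 4 weeks (28 days), saline at 7.5 mL/kg (8 arrays), the herbal medicine Songling Xuemaikang capsule (SXC) at 236.25 mg/kg (low dose, 6 arrays) or 708.75 mg/kg (high dose, 6 arrays), or the angiotensin receptor blocker valsartan at 21.6 mg/kg (6 arrays). Per the labels, RNA was taken from the aorta of each rat separately, and there was no strain with normal blood pressure among the groups used here. The series text gives 8 rats for valsartan, of which 6 arrays were analysed, and the sources used here do not give the rats' age. A level below is the log2 intensity of a probe relative to the 75th percentile of its array, so levels of different genes cannot be ranked against each other.

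Share of probes well above background ranged from 67.3% to 76.2% on saline arrays, 70.0% to 77.0% with low-dose SXC, 28.7% to 79.3% with high-dose SXC and 32.4% to 56.5% with valsartan. Detector gain was 323 to 325 V for all valsartan arrays and 4 with high-dose SXC, and 353 to 354 V for the others. Treated and saline arrays had 0 scan days in common, the gap being 82 days, so in comparisons with saline the scan and the treatment cannot be told apart.

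Adipocytes store fatty acids as triglyceride in a lipid droplet and release them by lipolysis. Lipoprotein lipase (Lpl) frees fatty acids from circulating lipoproteins, Fabp4 carries them in the cytoplasm, Cidec lets droplets fuse and grow, and Lipe is the hormone-sensitive lipase. Pck1, the cytosolic phosphoenolpyruvate carboxykinase, supplies glycerol 3-phosphate for re-esterification. Adiponectin (Adipoq), adipsin or complement factor D (Cfd), resistin (Retn) and leptin (Lep) are secreted. Many of these genes are also expressed by brown adipocytes, and the fat around the rat thoracic aorta is known for its brown character.

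Promoter sequences were available for 7 of the 10 genes (RefSeq, build GRCr8). The 250 bases before the transcription start are shown for Adipoq, used below as the reference for the other members, and for the 4 members whose valsartan arrays all lay below every saline array. They lie at Adipoq chr11:91240170-91240419 (minus strand), Cfd chr7:10465497-10465746 (minus strand), Retn chr12:6508524-6508773 (plus strand), Pck1 chr3:182348322-182348571 (plus strand) and Cidec chr4:148137116-148137365 (minus strand). All are written 5′ to 3′ on the strand of the gene, and capitals mark matches, on either strand, to AGGTCA (the half-site of nuclear receptors), TTNNGCAA (a C/EBP-like motif), TGACGTNA (a cyclic AMP response element) or TATAAA.
Adipoq: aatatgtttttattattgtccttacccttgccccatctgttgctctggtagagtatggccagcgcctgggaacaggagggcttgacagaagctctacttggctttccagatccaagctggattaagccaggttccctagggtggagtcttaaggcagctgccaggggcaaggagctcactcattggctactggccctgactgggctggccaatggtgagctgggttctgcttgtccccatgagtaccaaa
Cfd: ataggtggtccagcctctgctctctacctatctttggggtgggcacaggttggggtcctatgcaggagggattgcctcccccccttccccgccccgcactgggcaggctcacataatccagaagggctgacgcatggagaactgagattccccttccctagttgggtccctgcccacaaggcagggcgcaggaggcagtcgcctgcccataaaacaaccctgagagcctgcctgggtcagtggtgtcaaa
Retn: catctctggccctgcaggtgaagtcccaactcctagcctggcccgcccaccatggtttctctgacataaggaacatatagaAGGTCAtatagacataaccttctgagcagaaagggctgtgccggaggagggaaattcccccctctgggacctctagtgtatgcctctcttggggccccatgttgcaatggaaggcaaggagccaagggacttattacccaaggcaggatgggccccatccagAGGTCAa
Pck1: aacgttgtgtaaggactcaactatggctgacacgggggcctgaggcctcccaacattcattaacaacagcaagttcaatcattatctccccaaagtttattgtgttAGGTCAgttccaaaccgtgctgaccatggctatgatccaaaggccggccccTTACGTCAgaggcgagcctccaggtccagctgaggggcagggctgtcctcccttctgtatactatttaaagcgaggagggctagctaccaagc
Cidec: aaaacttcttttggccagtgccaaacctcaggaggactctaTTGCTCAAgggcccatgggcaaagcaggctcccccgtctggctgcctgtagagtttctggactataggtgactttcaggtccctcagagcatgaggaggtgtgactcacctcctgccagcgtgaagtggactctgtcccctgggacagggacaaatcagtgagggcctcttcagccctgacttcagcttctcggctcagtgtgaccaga
The match to TGACGTNA in the Pck1 sequence lies 93 to 86 bases before the start and reads TTACGTCA on the strand shown, and the element at this place is the textbook cyclic AMP response element of this promoter. Of all 33469 promoters of this length, 2.88% hold TGACGTNA. AGGTCA occurs once in the Pck1 sequence and at 2 places in that of Retn, against 14.1% of promoters with at least 1 match. Cidec holds a match to TTNNGCAA, as do 9.22% of promoters. TATAAA (12.9% of promoters) and the PPAR-RXR element, a direct repeat of AGGTCA with 1 base between (0.0508%), have 0 matches in these 5 windows. A match is only a description of letters, and the absence of one says nothing about binding of a factor.

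Among the saline rats the level of the adipocyte genes varied widely. The Adipoq level was 2.05 on saline array 1, 4.31 on array 2, 6.22 on array 3, 3.58 on array 4, 2.06 on array 5, 4.36 on array 6, 6.27 on array 7 and 5.55 on array 8. Arrays 3 and 7 were thus the highest and arrays 1 and 5 the lowest. The mean of arrays 3 and 7 exceeded that of arrays 1 and 5 18.3-fold for Adipoq, 11.8-fold for Cfd, 12.4-fold for Retn, 13.6-fold for Fabp4, 21.1-fold for Lpl, 19.5-fold for Lipe, 25.6-fold for Cidec and 88.1-fold for Pck1. All these genes kept the same order of array pairs, while Lep, near background, differed 2.33-fold. In bulk tissue a smaller amount of fat on the vessel and less RNA per adipocyte cannot be told apart.

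For the members, saline arrays came in pairs. Arrays 1 and 5, 2 and 6, and 3 and 7 lay within 0.48 of each other on the log2 scale for every measured member other than Lep. Array 4 lay within 0.17 of the average signal of arrays 1 and 2, and array 8 within 0.17 of that of arrays 2 and 3, for the same members. Over all probes well above background on every array, the SD of the log2 difference from these averages was 0.163 and 0.105, against 0.229 or more for any treated array and its closest average of 2 arrays of its group. Over the same probes, only arrays 3 and 7 of these pairs were nearest to each other (SD 0.477). Arrays 1 and 2 were nearest to array 4 (0.261 and 0.249), and arrays 5 and 6 to each other (0.374). The nearest array cannot decide on pairing over all probes, since array 4 lay near the average of arrays 1 and 2. Arrays 1 to 4 also shared 1 slide and arrays 5 to 8 another. Mean levels of red cell genes were 5.11 and 5.17 on arrays 1 and 5, and 5.66 and 5.80 on arrays 2 and 6. On arrays 3 and 7 they were 2.89 and 2.87. Pairs were thus not confined to the members, although less close for smooth muscle genes (2.56 and 2.18 on arrays 3 and 7). With arrays 4 and 8 so near averages of others, the 8 saline arrays may hold fewer than 8 independent measurements. Calls of members and lower calls over gene lists against saline are therefore also given with saline as the 3 averages of the pairs, without arrays 4 and 8.

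Genes of brown fat and of smooth muscle varied along with the members on the saline arrays. Ucp1, the uncoupling protein that defines brown fat, had levels of 1.62, 3.59, 6.91, 2.91, 0.25, 2.82, 6.49 and 6.14 on arrays 1 to 8, again highest on arrays 3 and 7. Cidea, another brown fat gene, ran from 2.96 on array 5 to 7.22 on array 7. Pparg, the nuclear receptor that drives adipocyte differentiation, ran from -0.46 on array 1 to 4.34 on array 3. Smooth muscle moved the other way, with Myh11, smooth muscle myosin, at 4.59 and 4.54 on arrays 3 and 7 and between 4.92 and 5.44 on the others. The mean level of 10 smooth muscle genes was 2.56 and 2.18 on arrays 3 and 7 and between 3.31 and 3.80 on the other saline arrays.

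**Figure D1:**
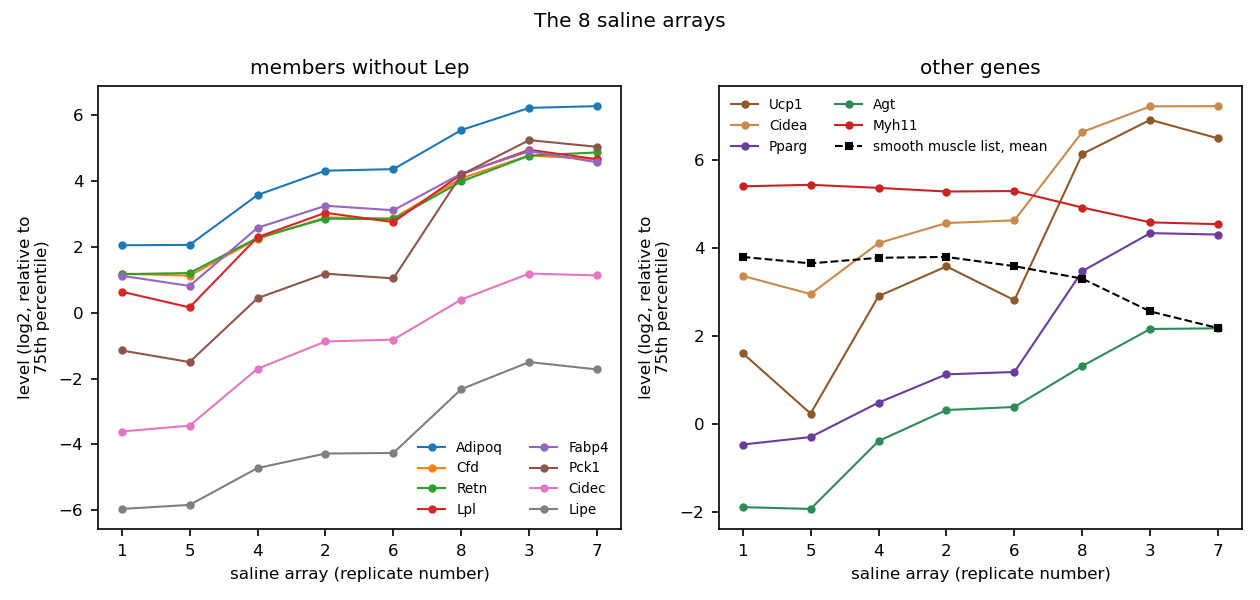
Levels (log2, relative to the array's 75th percentile) on the 8 saline arrays, ordered along the x axis by their Adipoq level; lines join the values of 1 gene and heights of different genes are not comparable. The members in the left panel rise together from arrays 1 and 5 to arrays 3 and 7, as do Ucp1, Cidea, Pparg and Agt in the right panel, where Myh11 and the mean of 10 smooth muscle genes are lowest on arrays 3 and 7.

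Treated rats had less RNA of most adipocyte genes than saline rats. In the limma test over all probes, 7 of the 9 measured members (Adipoq, Cfd, Pck1, Lpl, Fabp4, Retn and Cidec) were lower with high-dose SXC, with low-dose SXC and with valsartan (adjusted p under 0.05), and 0 were higher. Of all 23744 probes tested, 21.4%, 17.1% and 25.2% were called lower and 35.7%, 22.5% and 33.2% higher. The median log2 difference over the 9 members was -2.02, -2.06 and -3.31, against 0.25, 0.09 and 0.20 over all probes. Of all called probes 62.5%, 56.8% and 56.9% were higher, and 41.6%, 54.0% and 38.0% after quantile normalisation, under which the members' median was -2.09, -2.16 and -3.41. Lep and Lipe were not called in this fit. Under normexp background correction Lep was called higher with high-dose SXC (1.02, adjusted p = 0.000617) and valsartan (1.34, adjusted p = 2.2e-05), and with array weights Lipe was called higher with high-dose SXC (1.77, adjusted p = 0.00768). With saline as 3 averages, 5 members were lower with high-dose SXC (Adipoq and Fabp4 lost), 6 with low-dose SXC (Adipoq lost) and 7 with valsartan.

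**Figure D2:**
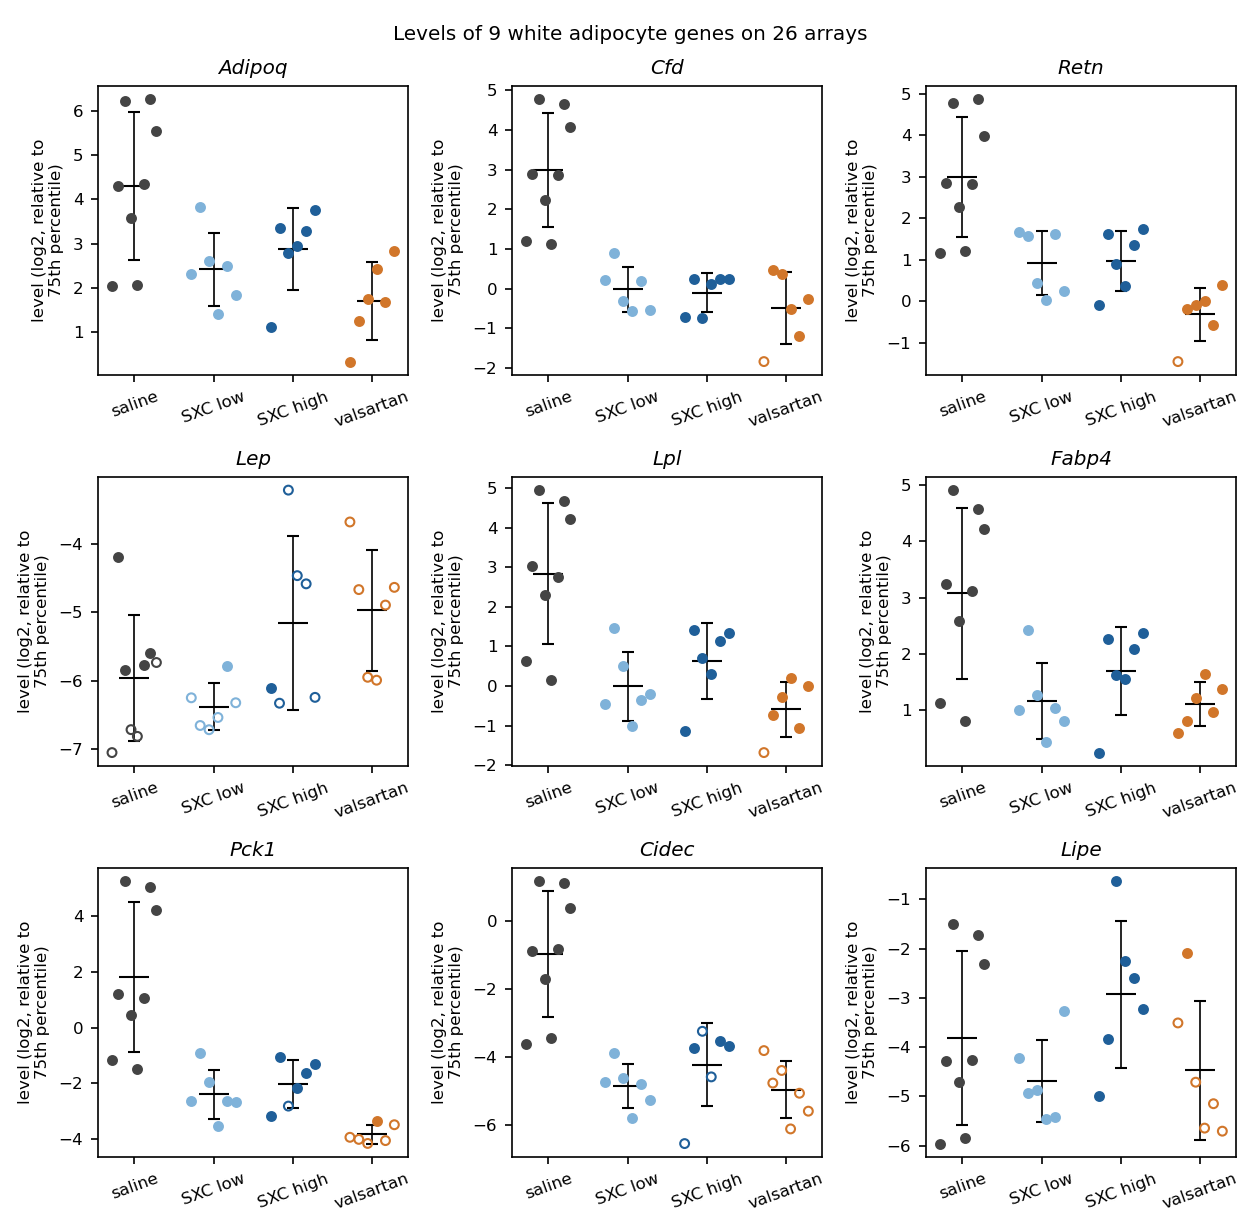
Level of each measured member (log2, relative to the array's 75th percentile) on every array, by group; filled points are well above background, open points are not, and bars give the mean and SD (saline n = 8, other groups n = 6). All treated arrays lie below all saline arrays for Cfd, whereas the lowest saline arrays of Adipoq, Lpl and Fabp4 lie among the treated ones and Lep and Lipe show no common direction.

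Among the secreted proteins, Cfd separated the groups completely. Its level ran from 1.13 to 4.78 on saline arrays (median 2.88), from -0.56 to 0.90 with low-dose SXC (median -0.07), from -0.74 to 0.25 with high-dose SXC (median 0.17) and from -1.84 to 0.48 with valsartan (median -0.39). Every treated array lay below every saline array, which was so for 15.2%, 9.6% and 12.6% of all probes with low-dose SXC, high-dose SXC and valsartan. The log2 difference was -3.00 ± 0.49 (SE, limma adjusted p = 2.54e-05), -3.08 ± 0.49 (adjusted p = 9.14e-06) and -3.47 ± 0.49 (adjusted p = 1.69e-06), that is 8.00-fold, 8.47-fold and 11.1-fold lower. Cfd starts the alternative pathway of complement and is made in bulk by fat.

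Adipoq, the insulin-sensitising hormone of fat, was lower by less. Its level ran from 2.05 to 6.27 on saline arrays (median 4.34), from 1.41 to 3.83 with low-dose SXC (median 2.41), from 1.12 to 3.76 with high-dose SXC (median 3.12) and from 0.32 to 2.82 with valsartan (median 1.71). The groups overlapped, since saline arrays 1 and 5 lay inside the range of every treated group. Against saline the log2 difference came to -1.88 ± 0.60 (SE, limma adjusted p = 0.0131) for low-dose SXC, -1.42 ± 0.60 (adjusted p = 0.0436) for high-dose SXC and -2.60 ± 0.60 (adjusted p = 0.000600) for valsartan. With saline as 3 averages the difference was -1.80 (adjusted p = 0.0669) for low-dose and -1.34 (adjusted p = 0.133) for high-dose SXC. Without saline arrays 3 and 7 the differences were -1.24 (adjusted p = 0.0793) and -0.77 (adjusted p = 0.235).

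For high-dose SXC the Adipoq call rested on single arrays as well. It was lost without high-dose array 1 (-1.07, adjusted p = 0.130), the array with the lowest fat signal of that group, and without high-dose array 3 (-1.40, adjusted p = 0.0668) or 4 (-1.44, adjusted p = 0.0622). Leaving out saline array 2, 3, 6, 7 or 8 gave adjusted p-values of 0.0565, 0.0963, 0.0572, 0.0955 and 0.0859, with differences of -1.42, -1.15, -1.41, -1.14 and -1.24. Within the higher detector gain, 2 high-dose arrays differed from the 8 saline arrays by -2.06.

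Retn, resistin, ran from 1.17 to 4.87 on saline arrays (median 2.85), from 0.03 to 1.68 with low-dose SXC (median 1.01), from -0.08 to 1.73 with high-dose SXC (median 1.12) and from -1.45 to 0.39 with valsartan (median -0.13). Its valsartan arrays all lay below the saline arrays, whereas both SXC groups reached into the saline range. In the fit it differed from saline by -2.06 ± 0.50 (SE, limma adjusted p = 0.00183) for low-dose SXC, -2.02 ± 0.50 (adjusted p = 0.00140) for high-dose SXC and -3.31 ± 0.50 (adjusted p = 4.65e-06) for valsartan.

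Lep, leptin, was close to the detection limit. It was well above background on 4 of 8 saline arrays, on 1 of 6 arrays of each SXC group and on 0 of 6 valsartan arrays. Levels ran from -7.05 to -4.19 with saline (median -5.80), -6.72 to -5.79 with low-dose SXC (median -6.43), -6.33 to -3.22 with high-dose SXC (median -5.35) and -5.99 to -3.68 with valsartan (median -4.78). The differences from saline of -0.42 ± 0.49, 0.80 ± 0.49 and 0.99 ± 0.49 (SE) were not called (limma adjusted p = 0.534, 0.164 and 0.0849). Values of arrays not above background carry no order, and the sign of the last 2 differences turned after quantile normalisation (-0.49 and -0.074).

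Both genes of fatty acid supply were lower in treated rats. Lpl ran from 0.16 to 4.95 on saline arrays (median 2.89), from -1.0 to 1.46 with low-dose SXC (median -0.27), from -1.12 to 1.41 with high-dose SXC (median 0.92) and from -1.68 to 0.19 with valsartan (median -0.50). Only saline arrays 1 and 5 reached down into the range of the SXC groups, and array 5 alone into that of valsartan. On the log2 scale it differed from saline by -2.85 ± 0.61 (SE, limma adjusted p = 0.000523), -2.21 ± 0.61 (adjusted p = 0.00323) and -3.43 ± 0.61 (adjusted p = 3.45e-05) for low-dose SXC, high-dose SXC and valsartan.

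Fabp4, the fatty acid carrier, ran from 0.81 to 4.90 on saline arrays (median 3.18), from 0.45 to 2.42 with low-dose SXC (median 1.02), from 0.25 to 2.36 with high-dose SXC (median 1.85) and from 0.60 to 1.65 with valsartan (median 1.1). As with Adipoq, saline arrays 1 and 5 lay inside every treated range. The log2 difference was -1.91 ± 0.50 (SE, limma adjusted p = 0.00347) for low-dose SXC, -1.38 ± 0.50 (adjusted p = 0.0212) for high-dose SXC and -1.96 ± 0.50 (adjusted p = 0.00167) for valsartan. For high-dose SXC the call was lost with saline as 3 averages (-1.27, adjusted p = 0.0779), without saline arrays 3 and 7 (-0.83, adjusted p = 0.128), without saline array 3 (-1.12, adjusted p = 0.0504) and without high-dose array 1 (-1.09, adjusted p = 0.0684).

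Pck1 showed the widest differences of all members. Its level ran from -1.50 to 5.24 on saline arrays (median 1.11), from -3.54 to -0.91 with low-dose SXC (median -2.64), from -3.16 to -1.04 with high-dose SXC (median -1.89) and from -4.15 to -3.36 with valsartan (median -3.96). Valsartan arrays all lay below the saline arrays, and 1 of 6 was well above background, whereas saline arrays 1 and 5 lay inside both SXC ranges. Against saline the log2 difference came to -4.20 ± 0.81 (SE, limma adjusted p = 0.000175) for low-dose SXC, -3.83 ± 0.81 (adjusted p = 0.000278) for high-dose SXC and -5.64 ± 0.81 (adjusted p = 2.13e-06) for valsartan. The SXC differences correspond to 18.4-fold and 14.2-fold, and the valsartan difference is measured against arrays mostly at background, so no fold is given.

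Cidec, the droplet fusion protein, ran from -3.61 to 1.19 on saline arrays (median -0.84) and from -5.81 to -3.88 with low-dose SXC (median -4.77). With high-dose SXC it ran from -6.56 to -3.24 (median -3.71) and with valsartan from -6.12 to -3.81 (median -4.92). All low-dose and all valsartan arrays lay below the saline arrays. In the fit it differed from saline by -3.89 ± 0.66 (SE, limma adjusted p = 3.71e-05) for low-dose SXC, -3.26 ± 0.66 (adjusted p = 0.000163) for high-dose SXC and -4.0 ± 0.66 (adjusted p = 1.35e-05) for valsartan. With high-dose SXC, Cidec was well above background on 3 of 6 arrays. It was so on 0 of 6 valsartan arrays, and against the lowest signal that counts as such there it was at least 4.28-fold lower than with saline.

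Lipe, the lipase, gave no single answer because its probes disagreed. The brighter probe differed from saline by -0.87 ± 0.73 with low-dose SXC, 0.90 ± 0.73 with high-dose SXC and -0.65 ± 0.73 with valsartan (SE, limma adjusted p = 0.367, 0.302 and 0.460). Its levels ran from -5.96 to -1.50 with saline, -5.47 to -3.27 and -5.00 to -0.63 with low and high dose, and -5.71 to -2.10 with valsartan, where 1 of 6 arrays was well above background. The other probe differed by -2.46 ± 0.84, -1.64 ± 0.84 and -1.38 ± 0.84, of which the first was called (adjusted p = 0.0216, 0.0988 and 0.164).

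**Figure D3:**
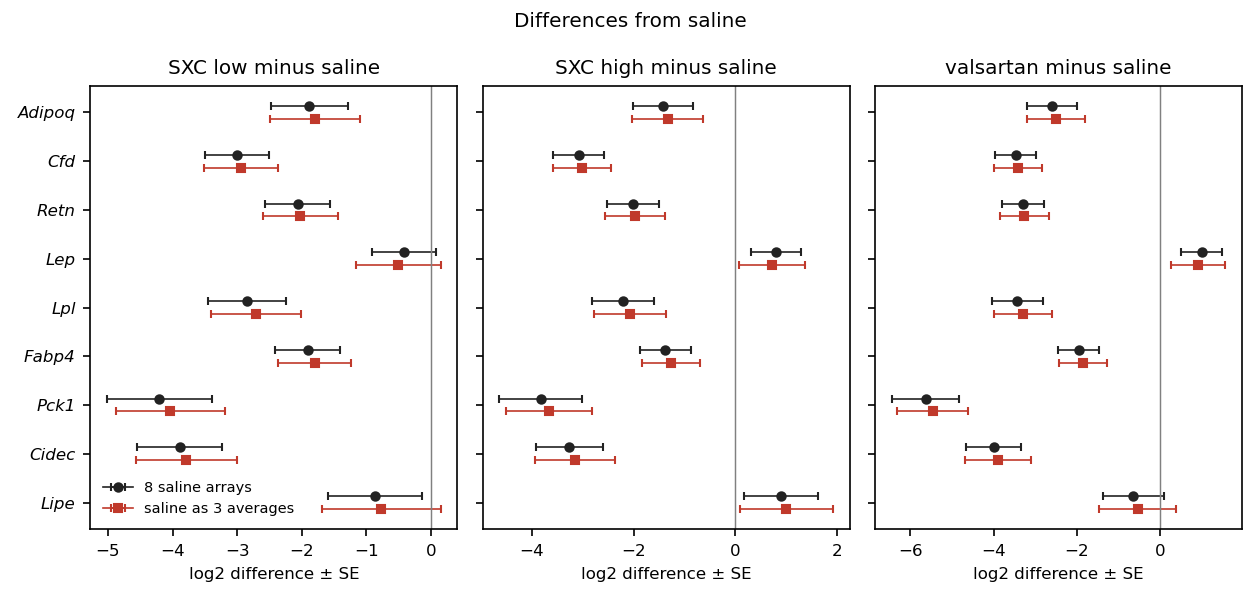
Log2 difference from saline (x axis) with its SE for each measured member, from the fit with all 8 saline arrays (black circles) and from the fit with saline as 3 averages of paired arrays (red squares). Estimates barely move while their errors widen, and Cfd, Pck1, Cidec, Lpl and Retn stay furthest to the left.

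Not every member was lower in the same proportion. On each array the level of a member was taken relative to that of Adipoq, a description chosen after the values had been seen and given with no test. Relative to Adipoq, Cfd lay between -1.61 and -0.86 on saline arrays although Adipoq itself covered 4.22 log2 units there. It lay between -2.93 and -1.97 with low-dose SXC and between -3.53 and -1.84 with high-dose SXC, both entirely below saline, and between -3.09 and -0.76 with valsartan. The difference of group means from saline was -1.11, -1.66 and -0.88, and -1.14, -1.69 and -0.90 with saline as 3 averages.

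Pck1, Lpl and Cidec were also low relative to Adipoq. With 5 of 6 valsartan arrays not above background for it, Pck1 relative to Adipoq lay between -3.56 and -0.98 on saline arrays and lower on every treated array (-5.13 to -4.51 with low-dose SXC, -5.59 to -4.28 with high-dose SXC, -6.30 to -4.25 with valsartan). Lpl lay between -1.90 and -1.27 with saline and between -2.84 and -1.95 on all treated arrays, with mean differences of -0.96, -0.78 and -0.83 for low-dose SXC, high-dose SXC and valsartan. Cidec lay between -5.65 and -5.03 with saline and from -7.70 to -7.05 and from -7.68 to -6.02 with low-dose and high-dose SXC. High-dose SXC held 3 arrays with Cidec not above background. Its valsartan range of -8.55 to -4.14 enclosed the saline range, on arrays where it was not above background.

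With SXC, Fabp4 followed Adipoq closely. Its mean relative to Adipoq differed from saline by -0.02 with low-dose SXC and 0.04 with high-dose SXC, within SDs of 0.24 (saline, n = 8), 0.21 and 0.20 (n = 6 each), and by 0.63 with valsartan (SD 0.55, n = 6), where arrays 1 to 5 lay above the saline range. Retn differed by -0.18, -0.59 and -0.71, with overlapping ranges in all 3 comparisons. Relative to Adipoq, 4 of the other 8 measured members lay wholly below saline with low-dose SXC, 4 with high-dose SXC and 2 with valsartan, against 0.0884%, 0.0421% and 0.0253% of all probes. Adipoq covered 4.22 log2 units on saline arrays and was lower in the treated groups. A probe that does not follow Adipoq could thus hardly lie wholly below saline. These small shares follow in part from the choice of reference, so they do not measure how rare the members' values are. Lipe with high-dose SXC (-7.20 to -3.41, saline -8.62 to -7.72) and Lep with valsartan (-8.42 to -4.01, saline -12.06 to -8.50, where 0 of 6 valsartan arrays were above background) lay wholly above saline. So did 8.27% and 17.9% of all probes, and with low-dose SXC 0 members and 1.19% of probes. Nothing particular to these genes is read from those shares, since Adipoq itself was lower in the treated groups and most probes were not. The Lipe values are those of its brighter probe, and on its other probe the high-dose and saline ranges relative to Adipoq overlapped.

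Pairs of single arrays of like Adipoq level, picked after their values were seen, illustrate this. Low-dose array 1, with Adipoq at 2.32, had Cfd at 0.23 and Pck1 at -2.64, whereas saline array 5, with Adipoq at 2.06, had Cfd at 1.13 and Pck1 at -1.50. High-dose array 6, with Adipoq at 3.76, had Cfd at 0.24 and Pck1 at -1.29, and saline array 4, with Adipoq at 3.58, had Cfd at 2.24 and Pck1 at 0.44.

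**Figure D4:**
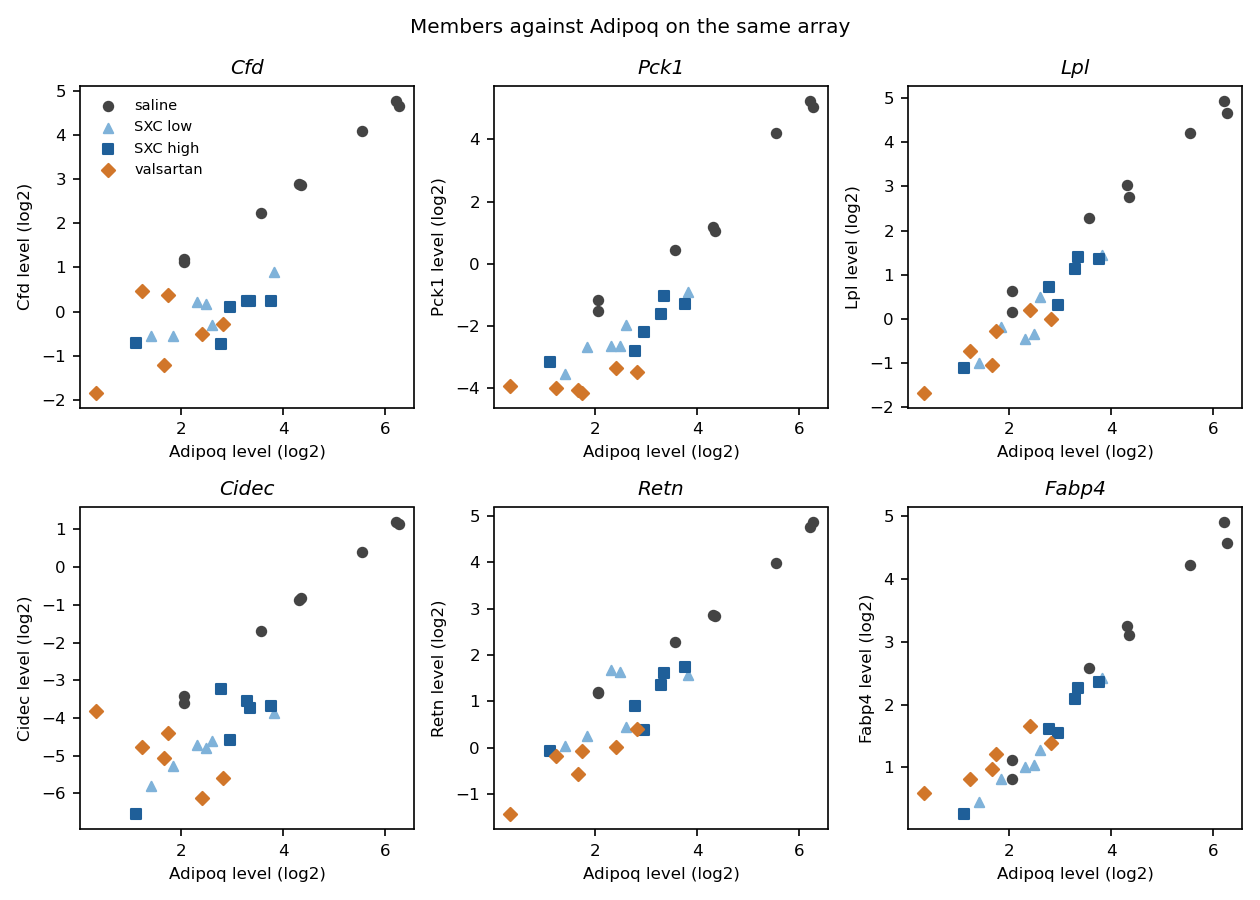
Level of 6 members (y axis, log2) against the Adipoq level (x axis, log2) on the same array; each point is 1 array, with symbols and colours for the groups. Arrays of both SXC groups continue the saline line for Fabp4 and lie below it for Cfd, Pck1, Lpl and Cidec; valsartan arrays lie below it for Pck1 and Lpl, on both sides for Cfd and Cidec, and 5 of 6 above it for Fabp4.

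Between the treated groups, 1 difference was called over the 9 members in 3 comparisons. By limma, 0 of 9 members were called between high-dose and low-dose SXC (2 at unadjusted p under 0.05, background 22.2% of probes called), with differences from -0.08 for Cfd, the 1 member lower in sign at the high dose, to 1.77 for Lipe. Valsartan was below high-dose SXC in sign for 8 of 9 members, with 0 called (2 at unadjusted p under 0.05, background 1.37%). The largest was Pck1, at -1.81 ± 0.87 (SE, limma adjusted p = 0.284), and 5 of the 6 valsartan values behind it are not above background, so they carry no order. Retn differed by -1.29 ± 0.54 (adjusted p = 0.214) and Adipoq by -1.17 ± 0.64 (adjusted p = 0.349). Within the lower detector gain, 6 valsartan and 4 high-dose arrays differed by -1.85 for Pck1, -1.40 for Retn and -1.49 for Adipoq.

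Against low-dose SXC, valsartan was lower in sign for 7 of 9 members and called for 1, Lep, which was higher (1.41 ± 0.53, SE, limma adjusted p = 0.0499, background 25.1% of probes called and 13.6% called higher). That call rests on arrays where Lep was not above background (0 of 6 with valsartan, 1 of 6 with low-dose SXC). It was lost on leaving out any of the 6 low-dose arrays (adjusted p from 0.0544 to 0.0908) or valsartan array 1, 2, 5 or 6 (0.117, 0.0814, 0.0789 and 0.0841). Pck1 differed by -1.43 ± 0.87 (adjusted p = 0.232) and Retn by -1.24 ± 0.54 (adjusted p = 0.0911). All valsartan arrays had the lower detector gain on scan day 4, and all low-dose arrays the higher gain on scan days 2 and 3. Gain, scan day and treatment thus cannot be told apart between these groups. Doses of SXC and valsartan are not matched.

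Across the 26 arrays, after the group means were subtracted, the genes outside the members whose pattern was nearest to that of Adipoq were Acsl1, Acvr1c, Lrg1, Art3, Prkar2b, Chchd10, Gpd1 and Pparg. Their root mean square difference from Adipoq was 0.22 to 0.40 on the log2 scale, against a median of 1.24 over 12240 genes. Genes measured on the same array share its RNA sample, brightness and amount of fat, so this is a description. Of the members, Lpl (0.28), Fabp4 (0.30) and Retn (0.42) lay nearest, followed by Cfd (0.55), Pck1 (0.69) and Cidec (0.79), while Lipe (1.26) and Lep (1.27) were no nearer than the median gene. Over the 8 saline arrays alone the order was another, with Cidec at 0.19, Lpl at 0.21, Fabp4 at 0.23, Cfd and Retn at 0.26, Lipe at 0.32, Pck1 at 1.02 and Lep at 1.29. The nearest genes outside the members were there Agt, Scn1a, Grifin, Agmo, Abcd2, Sostdc1, Rnf152 and Asns (0.091 to 0.21, median gene 1.63). Agt encodes angiotensinogen, the precursor of angiotensin II, which perivascular fat is known to make.

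Genes that act beside the members in the adipocyte held lower calls in every list, with calls in both directions in several, and their shares are to be read against the 17.1%, 21.4% and 25.2% of all probes called lower with low-dose SXC, high-dose SXC and valsartan. These shares belong to the fit with all 8 saline arrays. With saline as 3 averages, 2308 of 23744 probes were lower with low-dose SXC, so counts from that fit are not to be read against them. For high-dose SXC and valsartan the share of all probes in that fit is not given here. Its counts therefore show only how many calls remained, and not whether a list differs from all probes. Of 10 measured genes of lipid droplets and triglyceride synthesis, 8 were lower with low-dose SXC, 5 with high-dose SXC and 5 with valsartan, and 0 were higher, with medians of -1.78, -0.99 and -1.53. With saline as 3 averages 5, 3 and 4 were lower. Gpd1, which makes glycerol 3-phosphate from glucose, differed by -2.90 ± 0.74, -2.42 ± 0.74 and -4.21 ± 0.74 (SE, limma adjusted p = 0.00258, 0.00683 and 2.87e-05). The last enzyme of triglyceride synthesis, Dgat1, differed by -2.07, -1.88 and -2.69, and Agpat2, an acyltransferase of the same route, by -3.47, -2.20 and -3.29. Fitm2, needed for droplet formation, differed by -1.50, -1.45 and -2.02, and each of these 4 was called in all 3 comparisons. With saline as 3 averages, Agpat2 lost its call for high-dose SXC (-2.11, adjusted p = 0.0968). Agpat2 was well above background on 1 of 6 valsartan arrays.

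Of 10 measured genes of lipolysis and its control, 6 were lower with low-dose SXC, 5 with high-dose SXC (1 higher) and 7 with valsartan, with medians of -1.76, -1.34 and -1.95 (4, 4 and 7 lower with saline as 3 averages). Pnpla2, the first lipase of triglyceride breakdown, differed by -1.98, -2.09 and -2.93, and Mgll, the last one, by -1.26, -0.99 and -1.47. Pde3b, the phosphodiesterase through which insulin restrains lipolysis, differed by -2.44, -2.71 and -3.50. Adrb3, the β3-adrenergic receptor, was called with valsartan (-4.05 ± 0.85, SE, limma adjusted p = 0.000226) and not with low-dose or high-dose SXC (-1.99 and -1.24, adjusted p = 0.0634 and 0.215).

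Uptake genes gave 6, 5 and 7 lower of 9, and 1, 2 and 2 higher, for low-dose SXC, high-dose SXC and valsartan, and 4, 4 and 6 lower with saline as 3 averages. Cd36, the fatty acid translocase, differed by -2.16 ± 0.47, -1.90 ± 0.47 and -2.09 ± 0.47 (SE, limma adjusted p = 0.000626, 0.00126 and 0.000510), and Angptl4, an inhibitor of lipoprotein lipase, by -2.11, -2.21 and -3.78. Slc27a1, a fatty acid transporter, rose by 0.87, 1.17 and 1.68, the first not called with saline as 3 averages (0.88, adjusted p = 0.0879). Fatty acid synthesis gave 4, 2 and 4 lower of 10, and 0 higher (3, 2 and 3 lower with saline as 3 averages), so that the share with high-dose SXC was near the 21.4% of all probes. Thrsp, a lipogenic regulator, differed by -3.00, -2.73 and -4.64 and was called in each, while Scd, the stearoyl-CoA desaturase, was called with low-dose SXC (-1.62, adjusted p = 0.0184, or 0.148 with saline as 3 averages) and valsartan (-3.07, adjusted p = 3.14e-05) but not with high-dose SXC (-0.87, adjusted p = 0.174).

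Transcription factors of adipocytes were split. Of 11 measured, 4 were lower with low-dose SXC, 4 with high-dose SXC and 5 with valsartan, and 1, 3 and 1 were higher (3, 3 and 5 lower with saline as 3 averages). Pparg differed by -1.83 ± 0.65 (SE, limma adjusted p = 0.0274) for low-dose SXC, -1.30 ± 0.65 (adjusted p = 0.0920) for high-dose SXC and -2.32 ± 0.65 (adjusted p = 0.00375) for valsartan. Its low-dose call was lost with saline as 3 averages (-1.76, adjusted p = 0.0833). Cebpd, an early C/EBP factor, differed by -1.76, -1.39 and -1.75 and Nr1h3, the liver X receptor α, by -1.17, -1.66 and -2.02, all called. Mlxipl, the carbohydrate response factor, rose with high-dose SXC (2.21 ± 0.37, adjusted p = 1.53e-05) and valsartan (1.48 ± 0.37, adjusted p = 0.00127).

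Other adipokines gave 3, 4 and 5 lower and 1, 3 and 2 higher of 11, with medians of -0.26, -0.17 and -0.47 (3, 3 and 3 lower with saline as 3 averages). Agt differed by -2.27 ± 0.56, -2.33 ± 0.56 and -3.15 ± 0.56 (SE, limma adjusted p = 0.00187, 0.000882 and 3.10e-05) for low-dose SXC, high-dose SXC and valsartan. Nampt, which makes NAD from nicotinamide and is also secreted, differed by -2.26, -2.71 and -2.30, while Sfrp5, an antagonist of Wnt signals, rose by 1.21, 2.32 and 1.54. Receptors for adipokines gave 3, 2 and 2 lower and 2, 2 and 1 higher of 6 (3, 2 and 2 lower and 2, 1 and 1 higher with saline as 3 averages). Among the lower ones was Cdh13, the T-cadherin that binds adiponectin (-0.72, -0.82 and -1.24, all called).

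Brown fat genes gave 4, 3 and 8 lower of 13, with 0, 1 and 1 higher and medians of -0.82, -0.50 and -1.74, and 1, 1 and 8 lower with saline as 3 averages. In the fit with all 8 saline arrays, the share with high-dose SXC was close to the 21.4% over all probes. With saline as 3 averages, the 1 of 13 with low-dose SXC was no larger a share than the 2308 of 23744 probes then lower. Ucp1 differed by -2.40 ± 0.86 with low-dose SXC (SE, limma adjusted p = 0.0274, or 0.118 with saline as 3 averages), -1.57 ± 0.86 with high-dose SXC (adjusted p = 0.119) and -2.97 ± 0.86 with valsartan (adjusted p = 0.00450). Ppargc1a, a coactivator of thermogenic genes, differed by -1.42, -1.09 and -1.80, all called, the first 2 not with saline as 3 averages (-1.43 and -1.10, adjusted p = 0.0897 and 0.151). Dio2, the thyroid hormone activating deiodinase, was called with valsartan (-2.38, adjusted p = 0.000323) and not with low-dose or high-dose SXC (-0.30 and 0.05, adjusted p = 0.680 and 0.941). Dio2 was well above background on 0 of 6 valsartan arrays, so the size of that difference is not fixed by the values. Because white and brown fat genes varied together over the arrays, RNA of white and of brown adipocytes cannot be told apart for the members both express.

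**Figure D5:**
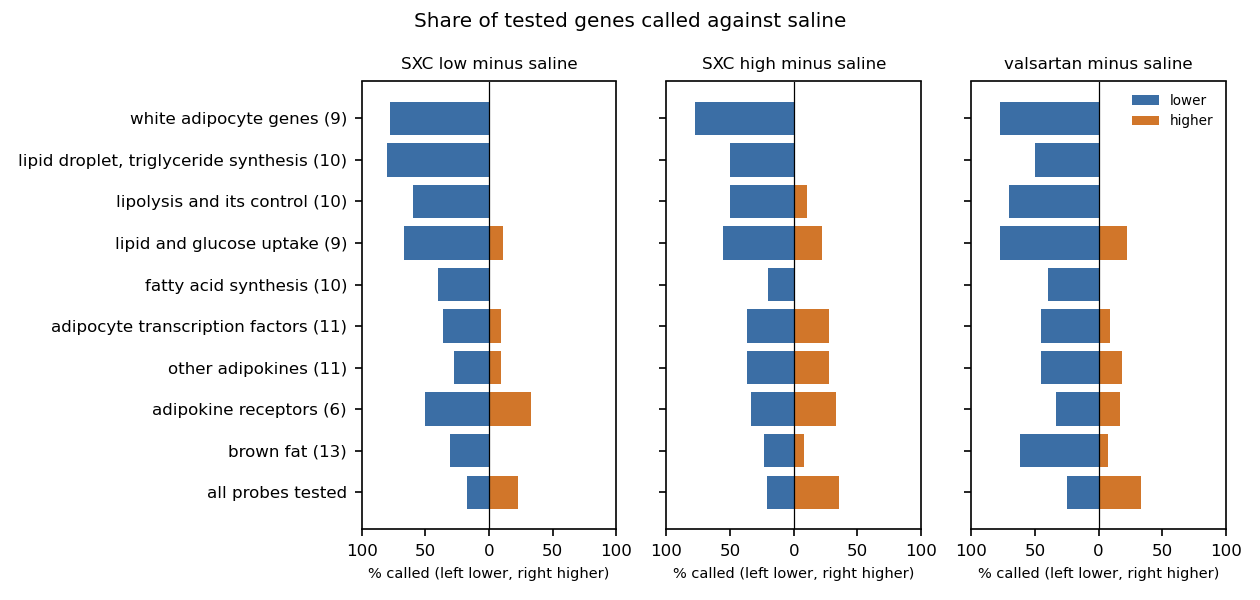
Share of the measured genes of each list called lower (bars to the left) or higher (bars to the right) against saline by limma at adjusted p under 0.05; numbers in brackets are genes measured, and the lowest bar gives all 23744 probes tested. Every list has a larger share of lower calls than all probes in each comparison, other than fatty acid synthesis with high-dose SXC. The brown fat share with high-dose SXC is close to that of all probes. Uptake genes, transcription factors, other adipokines and receptors hold calls in both directions in each comparison. So do lipolysis genes with high-dose SXC, and brown fat genes with high-dose SXC and valsartan.

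Markers of other cells moved with the comparisons as well, and their part in the differences of the members was not tested. Of all probes, 17.1%, 21.4% and 25.2% were called lower with low-dose SXC, high-dose SXC and valsartan, and 22.5%, 35.7% and 33.2% higher. Macrophage genes were lower for 8 of 9 in each comparison with saline, and their mean level ran from -0.95 to 0.09 on saline arrays and from -3.16 to -2.33 on treated arrays. Red cell genes were lower for 6 of 6 (mean level 2.87 to 5.80 with saline, -2.39 to 0.46 on treated arrays), and endothelial genes for 6, 6 and 5 of 8 (1 higher in each). With saline as 3 averages the macrophage and red cell counts were the same. Endothelial genes then gave 5, 5 and 5 lower and 0, 1 and 1 higher. Of 6 measured markers of adipocyte precursors, 2, 2 and 4 were lower and 1, 1 and 1 higher with low-dose SXC, high-dose SXC and valsartan. The counts were the same with saline as 3 averages. Their medians were -0.81, -0.27 and -1.12, and the lowest differences -3.17, -3.84 and -3.71. Among them, Pdgfra differed by -1.28, -1.69 and -1.85, whereas Dlk1, which is switched off as adipocytes mature, rose by 2.08, 3.18 and 3.99. Other lists held higher calls in part. For Schwann cell and smooth muscle genes the higher shares were near those of all probes, and nothing particular is read from them. Of 4 Schwann cell genes, 1, 2 and 1 were higher with low-dose SXC, high-dose SXC and valsartan (0, 0 and 1 lower), among them Sox10, a factor of glial cells (2.25, 4.36 and 4.11). Heart muscle genes gave 2 higher and 1 lower of 4 in each comparison, with medians of 0.59, 1.41 and 1.55. Of 2 measured lymphoid genes 0, 2 and 1 were higher, with Cd3g, part of the T cell receptor complex, at 0.065, 3.55 and 4.05. Skeletal muscle genes gave 1, 1 and 1 higher and 1, 3 and 2 lower of 4. Smooth muscle genes were called in both directions (2, 3 and 3 lower and 3, 3 and 4 higher of 10), and their mean level of 2.84 to 3.64 on treated arrays lay within the saline range of 2.18 to 3.80. With saline as 3 averages, smooth muscle genes gave 1, 3 and 3 lower and 3, 1 and 1 higher. Skeletal muscle genes then gave 0, 1 and 2 lower and 1, 1 and 1 higher, and heart muscle genes 0, 1 and 1 lower and 1, 2 and 2 higher. Lymphoid genes gave 0, 1 and 1 higher, and Schwann cell genes 1, 2 and 1 higher and 0 lower. Unlike the members, macrophage genes were not highest on saline arrays 3 and 7, where their mean level was -0.90 and -0.95.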

How the data were processed

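Total RNA of thoracic aorta was hybridised to 26 1-colour Agilent arrays. The deposited scanner files hold intensity values made by the authors with Agilent Feature Extraction 11.0.1.1, per the file headers: the processed signal is background-subtracted and not normalised between arrays. They also hold deposited detection and outlier flags (0 or 1). The authors' deposited table holds log2 values, of which the sources used here do not give the method; its columns all have a median of 5.75 and correlate at 0.965 or more with the levels of their own arrays, so scale and direction are known and the normalisation is not. It served as an alternative.

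Control and outlier spots were left out, spots of a probe were averaged, and levels are log2 intensity minus the array's 75th percentile. Of 30367 probes, the 23744 well above background on at least 6 arrays were tested. Accessions matched 18005 probes to 1 symbol in the GRCr8 table; the file headers name an older build, so only promoter coordinates are given.

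Groups were compared with limma 3.58.1 in R 4.3.3 (1 fit over 26 arrays, eBayes with trend, 2-sided), and Benjamini-Hochberg adjusted p under 0.05 over all probes was a call. The number of arrays limits precision: the median SE of a log2 difference was 0.30 against saline. Detection used at least 0.5 of a probe's spots. A probe not above background in a whole group has only a bound there: a fold written with at least sets the brighter group's mean against, on each dim array, the lowest detected signal or the probe's own, whichever is higher.

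Alternatives were other normalisations and filters, blocks for slide, scan day, detector gain and replicate number, array weights, saline as 3 averages, and arrays left out. The normexp alternative used the median spot signal and an offset of 50. Fits were tested on simulated data. Members and lists were chosen with earlier results of these data known. Named were all members, up to 4 genes per list with the smallest p against saline, and the 8 genes nearest to Adipoq over all arrays and over saline arrays. Cidea and Myh11 were named, and levels relative to Adipoq computed, after values had been seen. Figures were drawn with matplotlib 3.10.9.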

Additional observations from a re-analysis of the deposited data

Results flagged for a closer look

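Adipoq on high-dose SXC array 1 stood apart from the other 5 arrays of its group. Its level was 1.12, and the nearest array of the group was at 2.78, so the gap was 0.628 of the group's range, just over Dixon's critical value for 6 arrays. It was the 1 such case among 36 combinations of 9 genes and 4 groups, and chance alone marks about 1 in 20. Fabp4 was also lowest on that array, at 0.25, with a gap of 0.614 of the range.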

How the results depend on the processing

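Cfd, Pck1, Lpl, Retn and Cidec stayed lower than saline with adjusted p under 0.05 under every alternative that tested them. Calls against saline lost were those of Adipoq and Fabp4: for high-dose SXC with the slide as random block (-1.40 and -1.37, adjusted p = 0.135 and 0.0891), the gain block (-2.06 and -1.81), the 2 groups alone (0.0862 and 0.0641), 3 saline averages and array weights (-0.49 and -0.64); for low-dose SXC, Adipoq with slide or 3 averages; for valsartan, Fabp4 with the gain block (-2.61, adjusted p = 0.0695). Members called between valsartan and low-dose SXC were 0 with quantile normalisation, the authors' values, the filter on all 26 arrays, array weights and the replicate, slide, scan day and gain blocks, and 3 with the 2 groups alone. Between the SXC doses 1 was called with normexp, 1 with array weights and 2 without high-dose arrays 1 and 2 (left out after seeing the data, as were pairs of saline arrays). The filter on all 26 arrays left 2 members, both lower against saline in each comparison.

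Leaving out 1 array at a time gave 5 to 7, 7 to 7 and 7 to 8 members called against saline (high dose, low dose, valsartan; the eighth was Lep, higher with valsartan without saline array 2 or valsartan array 4), 0 to 1 for high against low dose, 0 to 1 for valsartan against low dose and 0 to 0 against high dose. For probes called, the ranges were 12582 to 13807, 8386 to 9269, 13066 to 13895, 3360 to 7158, 4605 to 6219 and 92 to 885, around 13547, 9410, 13876, 5272, 5970 and 326. Probes called for high against low dose, valsartan against low dose and valsartan against high dose numbered 10529, 14458 and 17 with normexp, 10253, 13252 and 189 without filter, 1633, 1840 and 4 with slide, 0, 19 and 694 with scan day, and 0, 3 and 1421 with the gain block, which gave 6502 and 3253 for high-dose SXC and valsartan against saline. With the filter on all 26 arrays (7278 probes) the 6 counts were 4545, 4302, 4946, 1520, 1992 and 53. Valsartan against high dose gave 725 with quantile normalisation and 4 with the 2 groups alone. Low-dose SXC against saline gave 5707 with 3 averages and 15620 with array weights, which gave 10169 for high against low dose and 697 for valsartan against high dose. Without high-dose arrays 1 and 2 these were 8432 and 1333. The scan day block gives no value against saline, and averaging a gene's probes gives no probe count. Only high-dose SXC held both gains, so the gain block rests on its 2 arrays at the higher and 4 at the lower gain. The scan day block links low dose and valsartan through 2 high-dose arrays on day 2 and 2 on day 4. Values from both blocks thus rest on few arrays.

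Signs turned mostly for Lep and Lipe, near background, and between treated groups; the cause was not tested. Against saline they turned for Lep with quantile normalisation (high-dose -0.49, valsartan -0.074), the authors' values (-0.37, -0.069), the gain block (-0.26, -0.60) and normexp (low-dose 0.20), and for Lipe with normexp (valsartan 0.58), the gain block (high-dose -0.60), the mean of its probes (high-dose -0.37) and without saline arrays 3 and 7 (valsartan 0.091). For high against low dose they turned for Cidec -0.31 and Lep -0.026 (quantile), Retn -0.054 (normexp), Cidec -0.32 (authors' values), Cidec -0.14, Lipe -0.68 and Retn -0.20 (scan day), Adipoq -0.17, Cidec -0.30 and Retn -0.17 (gain) and Cfd 0.24 (array weights). For valsartan against low dose they turned for Lipe -0.74 (quantile), Cidec 0.68 (normexp), Fabp4 0.0016 and Lipe -0.49 (authors' values), Lep -0.18 and Lipe -3.21 (scan day), Lep -0.19 and Lipe -2.02 (gain) and Fabp4 0.13 (array weights). For valsartan against high dose they turned for Cidec 0.056 (normexp) and Lep, at -0.24 (scan day), -0.34 (gain), -0.084 (array weights) and -0.34 (without high-dose arrays 1 and 2). Leaving out 1 array, Cfd ranged from -0.19 to 0.10 and Retn from -0.13 to 0.26 for high against low dose, Cidec from -0.34 to 0.12, Fabp4 from -0.20 to 0.19 and Lipe from -0.25 to 0.51 for valsartan against low dose, and Lep from -0.070 to 0.58 for valsartan against high dose.

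Replicate numbers did not pair the samples: over 36 same-numbered pairs the correlation of deviations ran from -0.37 to 0.28 (median -0.02), with 6 over 0.1. With the replicate block, 5, 7 and 7 members were lower against saline (Adipoq -0.89 and Fabp4 -0.94 were not called for high-dose SXC), and 108 probes differed between valsartan and high-dose SXC. Among the members, dim signal limits Lep, Lipe, Cidec with high-dose SXC and valsartan, and Pck1 with valsartan. Among the genes named beside them, it also limits Dio2 and Agpat2 with valsartan, and Adrb3 and Mlxipl, each well above background on 3 of 6 valsartan arrays.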
